A study of Mus musculus with 6 samples.

Results

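The mRNAs of 39 Polycomb complex subunits were followed in RNA-seq libraries of mouse embryonic stem cells (ESCs). The rule names them by symbol and uses no measured value, though the list was chosen with earlier results of these data known. They are the core and accessory subunits of the Polycomb repressive complexes PRC1 and PRC2, together with H2A deubiquitinases and an ASXL cofactor. All 39 genes were matched to a row by identifier, out of 37620 rows, and all 39 were among the 16023 genes that passed the filter on low counts. PolyA RNA came from E14 ESCs of strain 129/Ola grown with 15% serum, with 3 libraries from wild-type cells and 3 from *Ube2d3*-S138A cells, in which the ubiquitin-conjugating enzyme UBE2D3 carries alanine in place of a serine near its C-terminus. No library had a further treatment or time point. Per the study, functional work on ESCs used a mutant clone and a revertant made from it, the latter not analysed here. The study's text does not describe the RNA-seq, so the mutation and a difference between clones cannot be told apart here. The labels do not say whether the 3 libraries of a genotype came from separate cultures, and p-values measure only the spread between these libraries.

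Polycomb group proteins keep developmental genes silent in ESCs. PRC1 is a RING-type E3 ligase, built on RNF2 (RING1B) or RING1, that attaches 1 ubiquitin to histone H2A with the help of an E2 enzyme of the UBE2D family. PRC2 methylates histone H3 through EZH2 or EZH1, and its methyl mark is read by the CBX subunits of canonical PRC1, while variant PRC1 carries RYBP or YAF2 in place of a CBX protein. Deubiquitinases such as BAP1 and USP16 remove the ubiquitin from H2A.

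The libraries held 33227593 to 37169770 counts each. Levels are given in CPM, the library-size unit of RNA-seq, after TMM scaling, which corrects for library size and composition but not for transcript length. On principal components of log2 CPM, the first component (57.2% of the variance) placed wild-type 3 with S138A C, away from the other libraries, and the second (25.6%) separated the genotypes. No label names a batch that would hold these 2 libraries. The 6 columns of S138A and wild-type values end in the digits 1 to 3, and a fit with that digit as a replicate block is given beside each result whose call it changes. All 10 embryonic stem cell markers were present, with a summed level of 7179 to 7777 CPM in wild-type and 7468 to 7874 CPM in S138A libraries. Single markers differed: the block called *Klf4* and *Sall4* higher and *Zfp42* lower, the last without overlap (943, 932 and 899 CPM in wild-type and 875, 693 and 612 CPM in S138A libraries). *Ube2d3* itself had 473, 459 and 304 CPM in wild-type 1, 2 and 3 and 491, 429 and 265 CPM in S138A A, B and C (edgeR log2 fold change -0.061, standard error 0.26, adjusted p = 0.945), and its level does not check the genotype, since the mutation changes an amino acid.

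Among the 39 subunits, edgeR with genotype alone called 0. DESeq2 called 4 (10.3%, against 5.39% of all genes it tested) and the replicate block 11 (28.2%, against 19.8% of all genes). The 4 were among the 11, but the share of all genes called by both fits was not computed, so this overlap is a description only. In S138A ESCs the transcripts of *Suz12* and *Phf19*, both of PRC2, were lower in every library than in any wild-type library. Those of *Phc2* and *Bcorl1*, both of PRC1, were higher in every library. Under the block, *Mtf2* of PRC2 was also lower and *Ring1* of PRC1 also higher. But *Phf1* of PRC2 was higher and *Rnf2*, *Mga* and *Pcgf6* of PRC1 were lower, so the calls did not divide by complex. Across the set, the median log2 fold change of S138A against wild-type was 0.0043, against 0.017 over all genes tested, and the median size of the change was 0.13, against 0.22 over all genes tested. With genotype alone in the model, edgeR's quasi-likelihood test with Benjamini-Hochberg adjustment called 0 of the 39 members at an adjusted p under 0.05, and 0.0% of all genes. At an unadjusted p under 0.05, 10 of the 39 members passed (25.6%), against 14.2% of all genes.

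DESeq2 called 4 members, *Bcorl1* and *Phc2* higher and *Suz12* and *Phf19* lower, which was 10.3% of the set against 5.39% of all genes it tested (2.84% higher and 2.55% lower). The replicate block called 11 members, or 28.2%, against 19.8% of all genes. Of these, *Bcorl1*, *Phc2*, *Phf1* and *Ring1* were higher (10.3%, against 10.7% of all genes), and *Mga*, *Mtf2*, *Pcgf6*, *Phf19*, *Rnf2*, *Suz12* and *Usp16* were lower (17.9%, against 9.13%). Adding to the genotype model a second term that groups wild-type 3 with S138A C called the same 11 and *Bmi1*, 12 in all (30.8%, against 27.6% of all genes). Without those 2 libraries, the other 4 alone called 14 (35.9%, against 29.6%), adding *Cbx2* and *Cbx8*. Each of the 11 members called under the block differed in the same direction within wild-type 3 and S138A C as within the remaining libraries. The block pairs wild-type 3 with S138A C, so its calls favour such agreement, which is a description only. The libraries of the genotypes did not overlap for 11 members, 28.2% of the set against 22.2% of all genes. Higher without overlap were 5 (*Bcorl1*, *Ezh2*, *Phc2*, *Phf1* and *Ring1*, 12.8%, against 11.3% of all genes), and lower without overlap were 6 (*Mga*, *Mtf2*, *Phf19*, *Rnf2*, *Scmh1* and *Suz12*, 15.4%, against 10.9%). In the 4 libraries alone, where 2 stand against 2, 25 members did not overlap (64.1%, against 68.4% of all genes), 12 higher (30.8%, against 34.9%) and 13 lower (33.3%, against 33.4%). In bulk RNA of this kind, fewer cells that express a gene and less of its RNA per cell cannot be told apart.

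**Figure D1:**
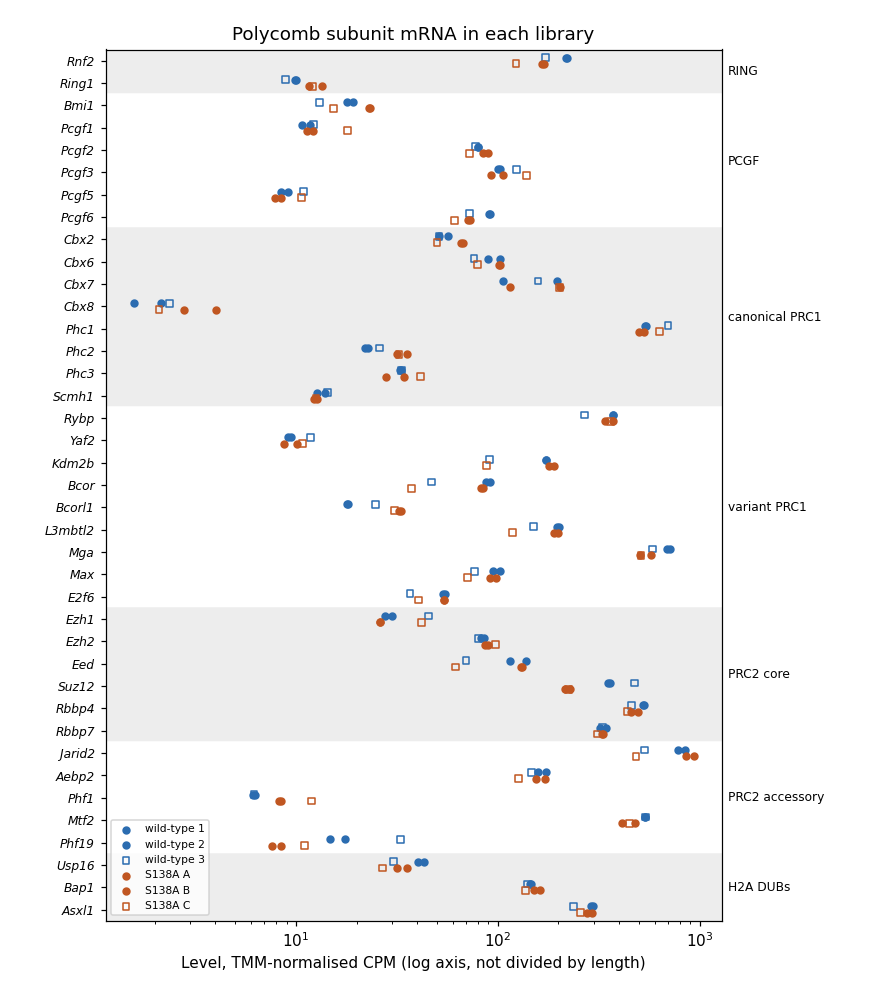
Level of each of the 39 Polycomb subunit mRNAs in each library, as TMM-normalised CPM on a log axis, ordered by role from top to bottom. Each point is 1 library, wild-type in blue and S138A in orange, with open squares for wild-type 3 and S138A C. The blue and orange points of *Suz12* and *Phf19* are separated with orange at the lower level, those of *Bcorl1* and *Phc2* with orange at the higher level, and the open squares of *Kdm2b*, *Bcor* and *Eed* lie well below the filled points of both genotypes.

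The stretch before the start of each of these 4 genes is shown because both PRC1 (through KDM2B) and PRC2 (through its Polycomb-like subunits, PHF19 among them) are known to be recruited by unmethylated CpG-rich DNA. The sequences are the 250 bases before the transcription start in the RefSeq annotation of GRCm38.p6, 5′ to 3′ on the strand of the gene, with every CpG in capitals. The genes were picked for printing after their values were seen, and whether PRC1 or PRC2 binds these stretches was not tested. *Phc2* has 3 starts in that annotation, and 1 is printed.
Suz12 (chr11:79992856-79993105, + strand): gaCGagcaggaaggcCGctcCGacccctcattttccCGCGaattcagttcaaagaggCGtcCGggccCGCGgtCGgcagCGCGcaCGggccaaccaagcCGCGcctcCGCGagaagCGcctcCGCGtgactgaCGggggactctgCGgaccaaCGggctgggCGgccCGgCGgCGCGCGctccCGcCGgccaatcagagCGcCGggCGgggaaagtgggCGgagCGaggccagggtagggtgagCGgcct
Phf19 (chr2:34913977-34914226, - strand): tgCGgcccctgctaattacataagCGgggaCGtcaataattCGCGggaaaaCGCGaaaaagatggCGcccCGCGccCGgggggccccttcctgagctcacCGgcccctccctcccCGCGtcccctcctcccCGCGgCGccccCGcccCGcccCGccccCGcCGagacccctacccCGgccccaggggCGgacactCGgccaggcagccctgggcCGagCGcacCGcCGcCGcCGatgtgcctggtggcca
Phc2 (chr4:128654452-128654701, + strand): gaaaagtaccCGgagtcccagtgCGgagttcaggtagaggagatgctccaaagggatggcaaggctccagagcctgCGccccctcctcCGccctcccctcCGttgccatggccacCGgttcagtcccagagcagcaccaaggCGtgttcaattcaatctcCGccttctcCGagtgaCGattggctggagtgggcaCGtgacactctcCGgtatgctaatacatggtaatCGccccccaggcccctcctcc
Bcorl1 (chrX:48341108-48341357, + strand): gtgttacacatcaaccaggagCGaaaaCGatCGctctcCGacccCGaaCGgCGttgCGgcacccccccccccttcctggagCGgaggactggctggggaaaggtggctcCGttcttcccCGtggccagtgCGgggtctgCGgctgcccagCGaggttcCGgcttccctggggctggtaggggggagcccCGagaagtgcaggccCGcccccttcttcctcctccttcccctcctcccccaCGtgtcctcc

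These windows hold 37 CpGs for *Suz12*, 31 for *Phf19*, 13 for *Phc2* and 18 for *Bcorl1*. Among 35 members with an entry the median was 21, against 6 over all 32851 promoters of the same length. *Pcgf1*, *Cbx2*, *Rybp* and *Yaf2* had no entry. The most CpG-rich member window was that of *Scmh1* (45 CpGs) and the poorest that of *Aebp2* (1 CpG), each counted at 1 listed start per gene. The letters TTCCCGC, an E2F motif, were searched on both strands and found in the windows of *Suz12*, *Phf19*, *Scmh1* and *Asxl1*, 11.4% of the members against 3.82% of all promoters. The E-box CACGTG, a palindrome that MAX-containing dimers can bind, was found in 10 members (28.6%, against 6.02% of all promoters), among them *Phc2* and *Bcorl1*. All promoters include those of low CpG content, to which the members were not matched, so these shares are descriptions only.

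*Rnf2* and *Ring1* encode the alternative catalytic subunits of PRC1, and their transcripts moved in opposite directions. *Rnf2* (ENSMUSG00000026484, chr1:151458004-151500955, - strand in GRCm38) had 218, 221 and 173 CPM in wild-type 1, 2 and 3 and 170.0, 167 and 123 CPM in S138A A, B and C. Wild-type 3 and S138A C were lowest within their genotypes, and the lowest wild-type library lay just above the highest S138A library. The fold change was not called without the block (edgeR log2 fold change -0.41, standard error 0.16, adjusted p = 0.326) but was with it (adjusted p = 0.0105). *Ring1* (ENSMUSG00000024325, chr17:34020792-34024680, - strand in GRCm38) had 9.93, 9.998 and 8.91 CPM in wild-type 1, 2 and 3 and 11.7, 13.6 and 12.2 CPM in S138A A, B and C. Every S138A library lay above every wild-type library, again without a call by genotype alone (edgeR log2 fold change 0.38, standard error 0.14, adjusted p = 0.319) and with one under the block (adjusted p = 0.0471). DESeq2 called neither gene, with an adjusted p of 0.215 for *Rnf2* and 0.133 for *Ring1*.

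Per kilobase of the longest coding transcript, *Rnf2* stood at 63.7 ± 8.35 CPM and *Ring1* at 4.73 ± 0.299 CPM in wild-type ESCs (SD, n = 3). As a ratio of plain counts within a library, *Rnf2* to *Ring1* was 21.9, 22.1 and 19.4 in wild-type 1, 2 and 3 and 14.6, 12.3 and 10.1 in S138A A, B and C. *Rnf2* stayed the more abundant of the pair in all 6 libraries, but every S138A ratio was below every wild-type ratio. The difference in log2 ratio was -0.79 (standard error 0.16), and the two-sided exact permutation p was 0.1, which groups of 3 cannot go below (0.333 after adjustment over the 10 pairs compared). Exons of *Rnf2* share 158 annotated bases with *Trmt1l* on the opposite strand. The kit keeps the strand, but whether the authors counted by strand is not stated, so reads of such antisense neighbours cannot be told apart here.

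The 6 PCGF subunits set the identity of each PRC1, PCGF2 (MEL18) and BMI1 in canonical complexes and PCGF1, PCGF3, PCGF5 and PCGF6 in variant ones. Per kilobase in wild-type ESCs *Pcgf6* was the most abundant (39.4 ± 4.99 CPM) and *Pcgf5* the least (1.48 ± 0.197 CPM, SD, n = 3 each), a 26.7-fold range. *Pcgf6*, of the MGA and L3MBTL2 complex, had 91.01, 91.7 and 72.7 CPM in wild-type 1, 2 and 3 and 72.8, 71.1 and 61.01 CPM in S138A A, B and C. The lowest wild-type library overlapped the S138A range by little, and the gene was not called by genotype alone (edgeR log2 fold change -0.32, standard error 0.13, adjusted p = 0.341). It was called lower under the block (adjusted p = 0.0218), with the second term (adjusted p = 0.00692) and in the 4 libraries alone (adjusted p = 0.00454). *Bmi1* had 17.98, 19.3 and 13.1 CPM in wild-type 1, 2 and 3 and 23.4, 23.1 and 15.4 CPM in S138A A, B and C, with S138A A and B above every wild-type library and S138A C below 2 of them. It was not called by genotype alone (edgeR log2 fold change 0.30, standard error 0.22, adjusted p = 0.588) nor under the block (adjusted p = 0.0566), and was called higher in the 4 libraries without wild-type 3 and S138A C (adjusted p = 0.0201).

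*Pcgf2*, at 79.1 ± 1.56 CPM in wild-type and 82.1 ± 8.74 CPM in S138A ESCs (SD, n = 3), overlapped between genotypes (edgeR log2 fold change 0.054, standard error 0.11, adjusted p = 0.857). The same held for *Pcgf1* (11.6 ± 0.793 and 13.9 ± 3.56 CPM, edgeR log2 fold change 0.26, standard error 0.21, adjusted p = 0.613), whose highest value, 18.0 CPM, was in S138A C. *Pcgf3* and *Pcgf5*, which pair with AUTS2-type partners, had log2 fold changes of 0.050 (standard error 0.17) and -0.083 (0.19), and neither was called in any fit of the genotypes.

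Canonical PRC1 joins a CBX reader to a Polyhomeotic subunit (PHC) and SCMH1. The 8 genes of this group ranged from 0.567 ± 0.114 CPM per kilobase for *Cbx8* to 141 ± 21.6 CPM per kilobase for *Phc1* in wild-type ESCs (SD, n = 3), a 248-fold range. *Phc2* (ENSMUSG00000028796, chr4:128654702-128752881, + strand in GRCm38), which polymerises through its SAM domain, had 22.7, 21.9 and 26.004 CPM in wild-type 1, 2 and 3 and 31.8, 35.6 and 32.5 CPM in S138A A, B and C. The S138A libraries all lay above the wild-type libraries, a 1.41-fold rise in mean level (edgeR log2 fold change 0.50, standard error 0.12, adjusted p = 0.197). It passed under the block (adjusted p = 0.0161) and in DESeq2 (adjusted p = 0.00848). Within wild-type 3 and S138A C the log2 difference was 0.32, and in the other 4 libraries 0.59. *Phc1*, the main Polyhomeotic gene of these cells, had 536, 545 and 697 CPM in wild-type 1, 2 and 3 and 530.3, 499 and 629.9 CPM in S138A A, B and C and did not follow *Phc2* (edgeR log2 fold change -0.10, standard error 0.15, adjusted p = 0.802). Its 2 highest libraries were wild-type 3 and S138A C. The ratio of *Phc1* to *Phc2* counts was 23.6, 24.8 and 26.8 with the wild-type genotype and 16.7, 14.04 and 19.4 with S138A, without overlap (log2 difference -0.60, standard error 0.15, two-sided exact permutation p of 0.1, adjusted 0.333). *Phc3* overlapped between genotypes (33.1, 32.7 and 33.4 CPM and 34.4, 27.97 and 41.4 CPM).

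Of the CBX readers, *Cbx7* was the most abundant (45.4 ± 13.6 CPM per kilobase in wild-type, SD, n = 3) and varied widely between libraries. It had 106, 197 and 158 CPM in wild-type 1, 2 and 3 and 203, 115 and 202 CPM in S138A A, B and C. Wild-type 2, S138A A and S138A C lay near the top of that range, wild-type 1 and S138A B near the bottom, and wild-type 3 between them, so that the split followed neither genotype (edgeR log2 fold change 0.17, standard error 0.29, adjusted p = 0.834) nor the 2 libraries that stood apart. Of 4142 genes with a mean of at least 50 CPM, 4 differed at least as far as *Cbx7* in both pairs, wild-type 1 against 2 and S138A A against B, *Cbx7* included. The others were *Gas5*, *Ppil1* and a gene without a symbol in the tables used, all looked up after the values of *Cbx7* were seen. Exons of *Cbx7* share 100 annotated bases with *Apobec3* on the opposite strand, and *Apobec3* was not among these genes.

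*Cbx2* had 51.3, 56.6 and 51.2 CPM in wild-type 1, 2 and 3 and 65.7, 67.1 and 50.1 CPM in S138A A, B and C. It was above the wild-type range in S138A A and B and below it in S138A C, and was not called by genotype alone (edgeR log2 fold change 0.20, standard error 0.14, adjusted p = 0.554) but was in the 4 other libraries (adjusted p = 0.0153). *Cbx8*, the scarcest member, had 1.57, 2.15 and 2.36 CPM in wild-type 1, 2 and 3 and 2.81, 4.02 and 2.10 CPM in S138A A, B and C (edgeR log2 fold change 0.55, standard error 0.31, adjusted p = 0.481), and the 4 libraries alone gave an adjusted p of 0.0265. *Cbx6* overlapped between genotypes (log2 fold change 0.075, standard error 0.15). The ratios of *Cbx7* to *Cbx2* and to *Cbx8* overlapped as well. *Scmh1* was lower without overlap (13.9, 12.8 and 14.3 CPM in wild-type and 12.7, 12.3 and 12.6 CPM in S138A libraries), but by only 1.09-fold, and no fit called it.

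Variant PRC1 is built around RYBP or YAF2, which replace the CBX reader. The largest change here was in *Bcorl1* (ENSMUSG00000036959, chrX:48341358-48408049, + strand in GRCm38), a paralogue of the BCOR corepressor of the PCGF1 complex. *Bcorl1* had 17.9, 18.1 and 24.9 CPM in wild-type 1, 2 and 3 and 33.03, 32.5 and 30.9 CPM in S138A A, B and C. Its S138A values lay close together and all above the wild-type values, of which wild-type 3 was the highest. The mean was 1.58-fold higher (edgeR log2 fold change 0.66, standard error 0.16, adjusted p = 0.198), and the call was made under the block (adjusted p = 0.0149) and by DESeq2 (adjusted p = 0.0110). The log2 difference was 0.31 within wild-type 3 and S138A C and 0.86 in the other 4 libraries. *Bcor* did not follow its paralogue, with 87.2, 91.2 and 47.2 CPM in wild-type 1, 2 and 3 and 84.5, 82.9 and 37.4 CPM in S138A A, B and C (edgeR log2 fold change -0.14, standard error 0.37, adjusted p = 0.896). Wild-type 3 and S138A C together averaged 49.0% of the mean of the other libraries.

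*Mga*, the DNA-binding scaffold of the PCGF6 complex, had 711, 688 and 582 CPM in wild-type 1, 2 and 3 and 576, 507 and 512 CPM in S138A A, B and C. The highest S138A library lay just under the lowest wild-type library, and the gene was called lower under the block (adjusted p = 0.0254) but not without it (edgeR log2 fold change -0.31, standard error 0.11, adjusted p = 0.302). Its partners in that complex, *L3mbtl2*, *Max* and *E2f6*, overlapped between genotypes, with log2 fold changes of -0.11, -0.073 and 0.041. *Rybp* was the most abundant variant subunit per kilobase (75.1 ± 13.1 CPM in wild-type, SD, n = 3) and *Bcorl1* the least (2.73 ± 0.539 CPM). *Rybp* had 338 ± 58.9 CPM in wild-type and 358 ± 16.1 CPM in S138A ESCs (edgeR log2 fold change 0.081, standard error 0.14, adjusted p = 0.837), and *Yaf2* had 10.1 ± 1.46 and 9.89 ± 1.09 CPM (edgeR log2 fold change -0.037, standard error 0.18, adjusted p = 0.949), with overlap for both. *Kdm2b*, whose CXXC domain binds CpG islands, had 173, 174 and 91.3 CPM in wild-type 1, 2 and 3 and 179, 190.4 and 88.1 CPM in S138A A, B and C, a pattern set by wild-type 3 and S138A C with a log2 fold change between genotypes of 0.059 (standard error 0.35).

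The PRC2 core needs EZH2 or EZH1, EED and SUZ12 together with the histone chaperones RBBP4 and RBBP7. Only *Suz12* of the 6 core genes was called in any fit of the genotypes. *Suz12* (ENSMUSG00000017548, chr11:79993106-80034123, + strand in GRCm38), the scaffold on which the other subunits assemble, had 353, 359 and 477 CPM in wild-type 1, 2 and 3 and 229, 215 and 224 CPM in S138A A, B and C. The S138A values were tight, and the lowest wild-type library was well above the highest of them. The mean was 1.78-fold lower in S138A ESCs. By genotype alone the change was not called (edgeR log2 fold change -0.83, standard error 0.14, adjusted p = 0.169), although its p was the lowest of the 39 members, and it was called under the block (adjusted p = 0.00582), by DESeq2 (adjusted p = 4.69e-05) and in the 4 libraries alone (adjusted p = 3.35e-04). The log2 difference was -1.09 within wild-type 3 and S138A C and -0.69 in the other 4 libraries.

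*Ezh2*, the main methyltransferase of dividing cells, had 82.7, 85.99 and 80.3 CPM in wild-type 1, 2 and 3 and 89.9, 86.1 and 97.9 CPM in S138A A, B and C. Its groups did not overlap, but the margin between wild-type 2 and S138A B was under 0.1 CPM and the fold change was small (edgeR log2 fold change 0.14, standard error 0.093, adjusted p = 0.555). *Ezh1*, the paralogue of lower activity, had 27.8, 29.9 and 45.4 CPM in wild-type 1, 2 and 3 and 26.02, 26.2 and 42.01 CPM in S138A A, B and C and differed mainly in wild-type 3 and S138A C, the highest libraries of their genotypes (edgeR log2 fold change -0.13, standard error 0.26, adjusted p = 0.861). The ratio of *Ezh2* to *Ezh1* counts was 2.98, 2.88 and 1.77 with the wild-type genotype and 3.45, 3.28 and 2.33 with S138A, with overlap. *Eed*, which reads the methyl mark that PRC2 makes, had 139, 115 and 69.6 CPM in wild-type 1, 2 and 3 and 132, 130.4 and 61.96 CPM in S138A A, B and C. Its mean was nearly equal in both genotypes (log2 fold change 0.0030, standard error 0.35), over a spread set by the same 2 libraries. *Rbbp7* was the most abundant member of the whole set per kilobase (148 ± 5.45 CPM in wild-type, SD, n = 3) and among the most even (331 ± 12.2 against 324 ± 12.5 CPM, edgeR log2 fold change -0.030, standard error 0.086, adjusted p = 0.907). *Rbbp4* had 504 ± 38.02 and 463 ± 27.4 CPM (edgeR log2 fold change -0.12, standard error 0.10).

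The accessory subunits direct PRC2 to its targets, PHF1, MTF2 and PHF19 as the Polycomb-like proteins of one form, and JARID2 with AEBP2 of the other. All 3 Polycomb-like genes differed between genotypes under the block, and not in the same direction. *Phf19* (ENSMUSG00000026873, chr2:34893757-34914026, - strand in GRCm38) had 17.6, 14.8 and 32.9 CPM in wild-type 1, 2 and 3 and 7.59, 8.43 and 11.1 CPM in S138A A, B and C. Wild-type 3 held by far the highest level, and the lowest wild-type library was above the highest S138A library. The mean was 2.41-fold lower (edgeR log2 fold change -1.27, standard error 0.33, adjusted p = 0.210), the largest log2 change of the 39 members. The call was made under the block (adjusted p = 0.00630) and by DESeq2 (adjusted p = 0.00951). The log2 difference was -1.57 within wild-type 3 and S138A C and -1.02 in the other 4 libraries.

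*Mtf2*, the Polycomb-like gene with by far the most transcript in ESCs (133 ± 0.0715 CPM per kilobase in wild-type, SD, n = 3), had 538, 538 and 538 CPM in wild-type 1, 2 and 3 and 478, 412 and 451 CPM in S138A A, B and C. The wild-type libraries were nearly equal and all above the S138A libraries. It was called lower under the block (adjusted p = 0.0326) but not by genotype alone (edgeR log2 fold change -0.27, standard error 0.093, adjusted p = 0.285) or by DESeq2 (adjusted p = 0.0735). *Phf1*, the scarcest accessory gene (2.46 ± 0.0239 CPM per kilobase), went the other way, with 6.14, 6.26 and 6.21 CPM in wild-type 1, 2 and 3 and 8.26, 8.45 and 11.998 CPM in S138A A, B and C. All S138A libraries were higher, S138A C most of all (edgeR log2 fold change 0.62, standard error 0.20, adjusted p = 0.257, and adjusted p = 0.0283 under the block). Exons of *Phf1*, whose longest coding transcript has 2526 bases, share 1370 annotated bases with *Cuta* on the opposite strand. *Cuta* had 5519 counts over the 6 libraries together, and *Phf1* had 198 to 445 in each. The part of *Cuta* reads in the *Phf1* counts was not tested. Exons of *Mtf2* share 395 bases with *Tmed5*. The ratio of *Mtf2* to *Phf19* counts was 30.6, 36.2 and 16.4 with the wild-type genotype and 62.9, 48.8 and 40.8 with S138A. Every S138A ratio was above every wild-type ratio (log2 difference 0.93, standard error 0.39, two-sided exact permutation p of 0.1, adjusted 0.333). *Jarid2* had 847, 784 and 535 CPM in wild-type 1, 2 and 3 and 933, 853 and 484 CPM in S138A A, B and C, the highest transcript level of the set without length correction in 4 of the 6 libraries, with no call between genotypes (log2 fold change 0.068, standard error 0.28). *Aebp2* overlapped too (log2 fold change -0.080, standard error 0.13).

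**Figure D2:**
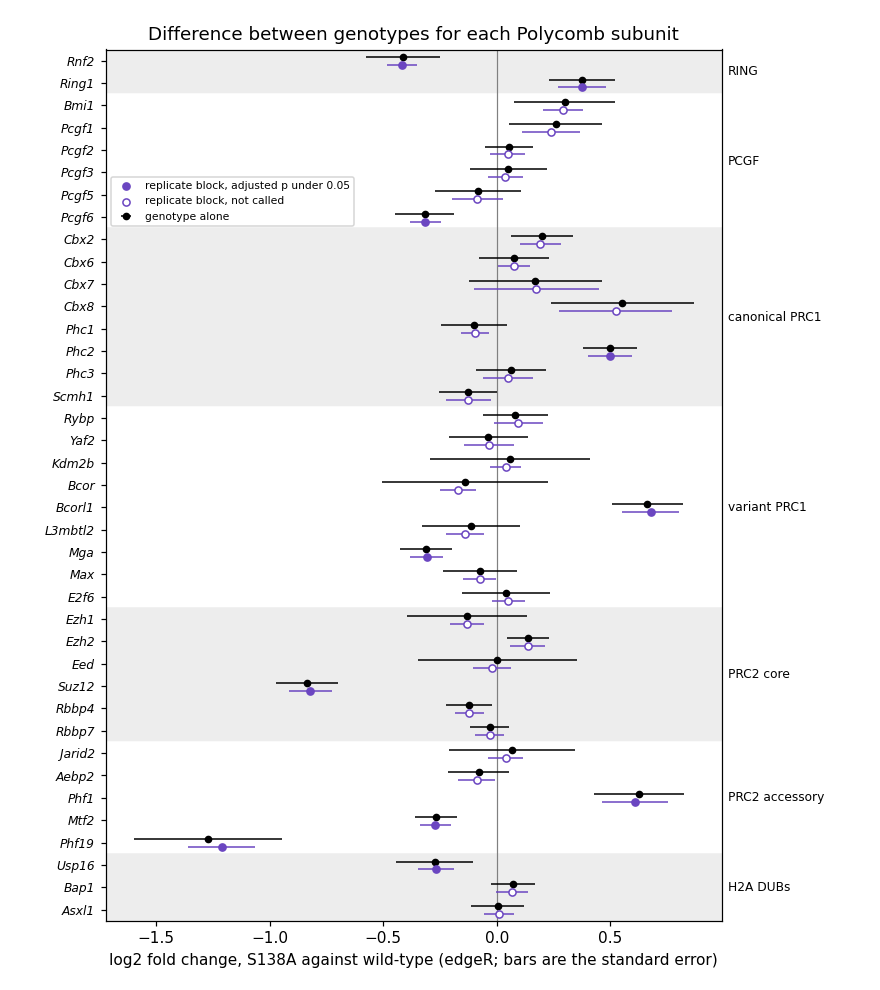
Log2 fold change of S138A against wild-type for each member, with the standard error as bars, from edgeR with genotype alone (black) and with the replicate block (purple, filled where the adjusted p is under 0.05). The 11 filled points are 4 to the right of 0 (*Ring1*, *Phc2*, *Bcorl1* and *Phf1*) and 7 to the left, with *Phf19* and *Suz12* farthest left, and the purple bars are shorter than the black bars at nearly unchanged positions.

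On the side that removes ubiquitin from H2A, *Usp16* had 43.3, 40.2 and 30.4 CPM in wild-type 1, 2 and 3 and 35.6, 31.6 and 26.96 CPM in S138A A, B and C. The wild-type and S138A libraries overlapped, and the gene was not called by genotype alone (edgeR log2 fold change -0.27, standard error 0.17, adjusted p = 0.520). It was called lower under the block (adjusted p = 0.0498, close to the threshold), with the second term (adjusted p = 0.0346) and in the 4 libraries alone (adjusted p = 0.0231). Its exons share 192 bases with *Cct8* on the opposite strand. *Cct8* had 123136 counts over the 6 libraries together, and *Usp16* had 1000 to 1429 in each. *Bap1*, the catalytic subunit of PR-DUB, had 143 ± 2.75 CPM in wild-type and 150.4 ± 12.8 CPM in S138A ESCs (SD, n = 3, edgeR log2 fold change 0.071, standard error 0.10, adjusted p = 0.782). Its cofactor *Asxl1* had 275 ± 31.9 and 276 ± 16.9 CPM (log2 fold change 0.0043, standard error 0.12). Per kilobase in wild-type, *Bap1* (41.4 ± 0.794 CPM) was 3.49-fold above *Usp16* (11.8 ± 2.09 CPM).

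**Figure D3:**
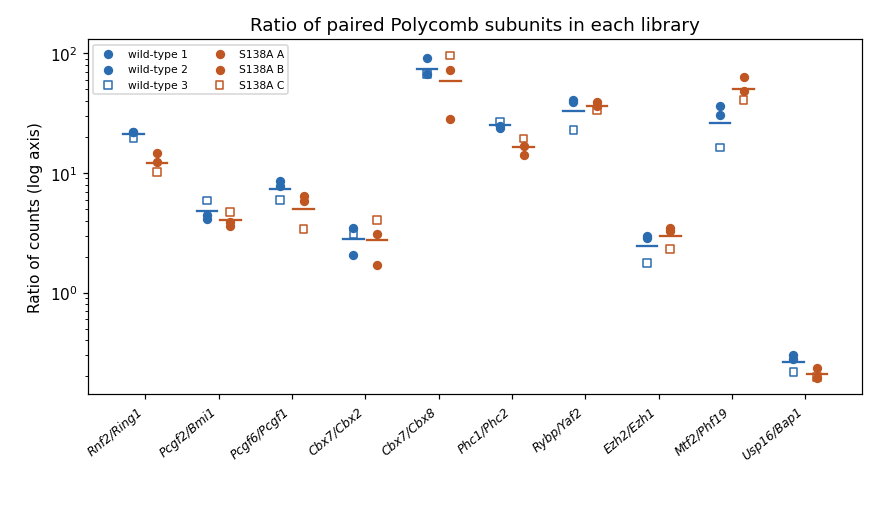
Ratio of plain counts between paired subunits in each library on a log axis, wild-type in blue and S138A in orange, with open squares for wild-type 3 and S138A C and a line at each geometric mean. For *Rnf2* to *Ring1* and *Phc1* to *Phc2* every S138A ratio lies below the wild-type ratios, for *Mtf2* to *Phf19* every S138A ratio lies above them, and the other 7 pairs overlap.

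Of the 10 pairs compared, *Rnf2* to *Ring1*, *Phc1* to *Phc2* and *Mtf2* to *Phf19* were the 3 without overlap, each at the smallest p the design allows. The pair of deubiquitinases, *Usp16* to *Bap1*, had ratios of 0.301, 0.276 and 0.217 with the wild-type genotype and 0.234, 0.195 and 0.197 with S138A. *Pcgf6* to *Pcgf1* had 8.49, 7.79 and 5.93 and 6.38, 5.81 and 3.40. In both pairs wild-type 3 was the lowest wild-type library and fell inside the S138A range. *Pcgf2* to *Bmi1* and *Rybp* to *Yaf2* overlapped, with log2 differences of -0.24 and 0.13 (standard errors 0.19 and 0.28).

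The set also varied along the split that separated S138A C and wild-type 3 from the rest. With genotype in the model, 20 members differed between these sets of libraries (51.3%, against 51.1% of all genes), 6 of them higher (15.4%, against 25.9%) and 14 lower (35.9%, against 25.2%). The libraries were set apart by the principal components of these same data, so these counts are descriptions. The lower ones included subunits of several complexes: *Bcor* (log2 difference -1.04, standard error 0.078), *Kdm2b* (-0.998, 0.067), *Eed* (-0.97, 0.092) and *Jarid2* (-0.74, 0.082). *L3mbtl2*, *Bmi1*, *E2f6*, *Rnf2*, *Max*, *Usp16*, *Cbx6*, *Pcgf6*, *Aebp2* and *Asxl1* were lower by less, from -0.55 to -0.22. Higher in the 2 libraries were *Phf19* (0.77), *Ezh1* (0.67), *Pcgf3* (0.38), *Pcgf1* (0.37), *Pcgf5* (0.35) and *Phc1* (0.33). *Kdm2b* and *Bcor* of the PCGF1 complex were thus lower where *Pcgf1* itself was higher, and *Suz12* did not pass (log2 difference 0.22, adjusted p = 0.0682 in edgeR). What these 2 libraries share was not tested.

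**Figure D4:**
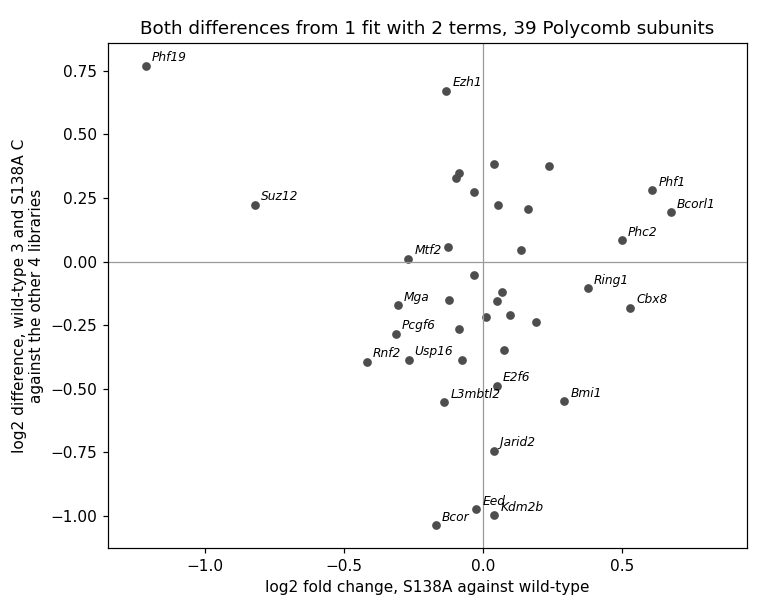
Log2 fold change of S138A against wild-type (horizontal) and log2 difference between the open-square libraries of the plot of levels, wild-type 3 with S138A C, and the rest (vertical) for the 39 members, both from 1 edgeR fit. *Bcor*, *Kdm2b*, *Eed* and *Jarid2* lie low near 0 on the horizontal axis, *Suz12* and *Phf19* lie far to the left, and *Bcorl1*, *Phf1* and *Phc2* lie to the right near 0 to 0.28 on the vertical axis.

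Beyond the subunits themselves, 41 genes of further Polycomb partners, H2A deubiquitinases, H3 demethylases and UBE2D enzymes were tested. Without the block 0 of the 41 were called by edgeR, and 10 had an unadjusted p under 0.05 (24.4%, against the 14.2% of all genes). The block called 11 (26.8%, against 19.8% of all genes), with *Fbrs*, *Fbrsl1*, *Foxk1*, *Kdm6b* and *Mbd6* higher and *Cbx1*, *Csnk2a1*, *Foxk2*, *Hdac2*, *Skp1a* and *Tfdp1* lower, and DESeq2 called *Cbx1*, *Csnk2a1* and *Skp1a* lower (7.32%, against 5.39%). *Cbx1*, a heterochromatin protein of the HP1 family, had 369.8, 373 and 348 CPM in wild-type 1, 2 and 3 and 239.7, 234 and 212 CPM in S138A A, B and C and the lowest p of these genes (edgeR log2 fold change -0.67, standard error 0.093, adjusted p = 0.169, adjusted p = 0.00398 under the block and 1.15e-08 in DESeq2). The S138A libraries were all far below the wild-type libraries. *Skp1a*, the SKP1 partner of KDM2B, had 276, 251 and 245 CPM in wild-type 1, 2 and 3 and 186, 165 and 143 CPM in S138A A, B and C, again with every S138A library lower (edgeR log2 fold change -0.64, standard error 0.12, adjusted p = 0.187, adjusted p = 0.00509 under the block).

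*Fbrsl1*, a relative of AUTS2 in the PCGF3 and PCGF5 complexes, had 23.3, 21.96 and 28.9 CPM in wild-type 1, 2 and 3 and 31.9, 32.999 and 38.3 CPM in S138A A, B and C (edgeR log2 fold change 0.47, standard error 0.15, adjusted p = 0.247, adjusted p = 0.0124 under the block). *Kdm6b* encodes a demethylase that removes the PRC2 mark. It had 79.1, 75.6 and 58.3 CPM in wild-type 1, 2 and 3 and 104, 104 and 86.3 CPM in S138A A, B and C (edgeR log2 fold change 0.47, standard error 0.15, adjusted p = 0.254, adjusted p = 0.00958 under the block). Both were higher in every S138A library, *Fbrsl1* with wild-type 3 and S138A C the highest of their genotypes and *Kdm6b* with them the lowest.

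Some markers of other cell types did not overlap between the genotypes, though edgeR by genotype alone called none of them. DESeq2, which called 5.39% of all genes, did call *Col1a1*, *Col3a1*, *Thy1*, *Krt7* and *Cdx2* higher and *Lama1* and *Pax6* lower. Over all genes tested, 11.3% were higher and 10.9% lower without overlap. The summed level of 10 fibroblast markers was 194 to 227 CPM in wild-type and 203 to 329 CPM in S138A libraries. Of these, 3 (*Col1a1*, *Col3a1* and *Thy1*) were higher without overlap, *Col3a1* at only 0.454 to 2.31 CPM over all libraries. The block called the same 3 higher (adjusted p = 0.0362, 0.0161 and 0.00882). Another 4 (*Postn*, *Lum*, *Dcn* and *S100a4*) were under 1 CPM in all 6 libraries. For 7 trophoblast markers the sum was 59.6 to 87.6 CPM in wild-type and 71.8 to 77.5 CPM in S138A libraries. Higher without overlap were *Krt7* and *Cdx2*, the latter at only 0.182 to 1.93 CPM over all libraries, and *Elf5* was under 1 CPM. The block called *Krt7* and *Cdx2* higher but *Tfap2c* lower (log2 fold change -0.27). For 9 primitive endoderm markers the sum was 158 to 176 CPM in wild-type and 160.3 to 193 CPM in S138A libraries. Lower without overlap were *Gata6* and *Lama1*, and *Sox17* and *Foxa2* were under 1 CPM. The block called *Lama1* lower (log2 fold change -0.43) but *Col4a1* higher (0.45). The sum of 6 mesoderm markers overlapped between genotypes (9.78 to 18.8 CPM and 8.17 to 24.2 CPM), and *Mesp1* and *Tbx6* among them were under 1 CPM throughout. *Pax6*, a neural progenitor marker, had 9.96, 9.62 and 2.75 CPM in wild-type and 2.64, 2.66 and 1.62 CPM in S138A libraries, lower without overlap. The block called *Pax6* lower too (adjusted p = 0.0101). The part of these markers in the differences of the Polycomb subunits was not tested.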

How the data were processed

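PolyA RNA of 3 wild-type and 3 *Ube2d3*-S138A E14 ESC libraries was sequenced. Per the labels the authors used CASAVA version 1.8.4, TopHat2 version 2.0.11 and featureCounts with genome build mm9 (NCBIM37), and deposited raw counts per gene. The strand setting and the treatment of reads that fit several genes are not given in the sources used here. Symbols were matched by identifier for 32897 of 37620 rows (87.4%). The S138A column names do not match the replicate titles of the labels, so these libraries are named A, B and C in column order. The members and gene lists were chosen with earlier results of these data known. The summed level of 1 further marker list is not reported here.

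Tests were run with edgeR (version 4.0.16, on limma 3.58.1) and DESeq2 (version 1.42.0) in R 4.3.3, and permutation tests with scipy 1.17.1 in Python 3.11.15. Genes were kept by filterByExpr (minimum count 10, minimum total 15), scaled by TMM and compared with edgeR's quasi-likelihood test, adjusted by Benjamini-Hochberg over all genes tested and called at 0.05. The standard error of a log2 fold change was taken as its absolute value over the root of its F statistic. The scripts were tested on simulated data. Depth was 33227593 to 37169770 counts per library, so counting error was small for most members. Levels per kilobase used the longest coding transcript of GENCODE M21 (GRCm38, not the build of the counts). Genes given in full were *Rnf2*, *Ring1*, the 8 members of lowest p, members of the 10 pairs, the highest and lowest level per kilobase in each of 7 roles, the 4 partner genes of lowest p and *Ube2d3*. Exon overlaps and the within-genotype comparison of *Cbx7* were added after the values were seen.

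For the replicate block, the final digit of each column name was taken as the number. Deviations from the group mean correlated at 0.53, 0.493 and 0.753 within the same digit, and at 0.526 and 0.515 with 1 and 2 crossed, so the pairing comes from column names, not from a stated design. Alternatives were DESeq2, RLE factors, no filter, a filter of 1 CPM in 3 libraries, the block, a second term grouping wild-type 3 with S138A C, the other 4 libraries alone, and each library left out.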

Additional observations from a re-analysis of the deposited data

How the results depend on the processing

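Counts of calls depended on the model far more than on scaling or filtering. Over all genes, edgeR by genotype alone called 0, and 2 higher and 1 lower with no filter on low counts. DESeq2 called 420 higher and 377 lower, the replicate block 1717 and 1463, the model with a term for the pair of libraries that stood apart 2338 and 2080, and the 4 libraries alone 2463 and 2293. Among the 39 members the calls were 2 higher and 2 lower in DESeq2, 4 higher and 7 lower under the block, 5 higher and 7 lower with that term and 7 higher and 7 lower in the 4 libraries. Among the 41 partner genes they were 0 higher and 3 lower in DESeq2, 5 higher and 6 lower under the block, 6 higher and 10 lower with the term and 7 higher and 9 lower in the 4 libraries. Members without overlap numbered 12 higher and 13 lower in the 4 libraries, a share below that of all genes. The cause of these shifts was not tested, apart from what the models contain: the block and the term remove the spread that wild-type 3 and S138A C add. RLE factors and the filter of 1 CPM changed no call among members, and the block changed no call but those given.

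With each library left out in turn, genes called ranged from 0 to 59 higher and from 0 to 20 lower, with the highest counts without S138A C, and no member was called. Members without overlap ranged from 5 to 12 higher, the most without S138A C (30.8%, against 22.4% of all genes), and from 6 to 10 lower, the most without wild-type 3 (25.6%, against 23.6%). Only members near 0 changed sign under another model. *Eed* went to -0.00085 with RLE factors, -0.00097 in DESeq2, -0.020 under the block and -0.024 with the term. The 4 libraries alone reversed the log2 fold changes of *Pcgf3* (-0.021), *Phc3* (-0.082), *Rybp* (-0.069), *Yaf2* (0.013), *Asxl1* (-0.046) and the log2 ratio of *Rybp* to *Yaf2* (-0.081). Leaving out 1 library turned the sign of these log2 fold changes, whose lowest and highest values were *Pcgf2* -0.019 to 0.13, *Pcgf3* -0.13 to 0.16, *Pcgf5* -0.23 to 0.027, *Cbx6* -0.032 to 0.18, *Cbx7* -0.045 to 0.39, *Phc1* -0.21 to 0.032, *Phc3* -0.089 to 0.19, *Rybp* -0.060 to 0.15, *Yaf2* -0.12 to 0.086, *Kdm2b* -0.19 to 0.33. The others were *Bcor* -0.39 to 0.15, *L3mbtl2* -0.25 to 0.084, *Max* -0.19 to 0.049, *E2f6* -0.13 to 0.16, *Ezh1* -0.40 to 0.12, *Eed* -0.24 to 0.28, *Jarid2* -0.11 to 0.30, *Aebp2* -0.18 to 0.026, *Asxl1* -0.091 to 0.054, *Ube2d3* -0.25 to 0.16. For the log2 ratios they were *Cbx7* to *Cbx2* -0.29 to 0.33, *Cbx7* to *Cbx8* -0.72 to 0.16, *Rybp* to *Yaf2* -0.14 to 0.28. *Suz12*, *Phf19*, *Phc2*, *Bcorl1*, *Rnf2* and *Ring1* kept their direction under every alternative run. With 3 libraries against 3 the exact tests of ratios cannot pass 0.1, and the levels of *Cbx8*, the scarcest member, rest on the fewest counts.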
